A study of Homo sapiens with 24 samples.

Results

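The 2′-5′-oligoadenylate synthetase (OAS) family, MX1 and ISG15 were read from 9 array probes, chosen by ID for 6 antiviral genes among the 47231 probes of the table. OAS1 was read by ILMN_1658247 and ILMN_1675640, OAS2 by ILMN_1736729 and ILMN_1674063, OAS3 by ILMN_1745397, OASL by ILMN_1674811 and ILMN_1681721, MX1 by ILMN_1662358 and ISG15 by ILMN_2054019. The names came from the Illumina HT-12 annotation, since the table gives no gene symbols, and which transcript of a gene each probe reads is not given in the sources used here.

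The study asked how loss of SUZ12, a core subunit of the histone methyltransferase complex PRC2, alters the response to interferon gamma (IFNγ) in SW-13, a human adrenocortical carcinoma line that lacks the chromatin remodeling ATPase BRG1. Every group of cells received siRNA in a pair of transfection cycles, either 50 nM control siRNA (siCtrl) or 50 nM siSUZ12. Of the 8 groups, 4 also received 75 nM siBRM against the BRG1-related ATPase BRM. IFNγ was given for 6 hours to 4 groups and withheld from the others. Each group had 3 arrays, described in the methods as biological replicates. Cells with siBRM carried 125 nM siRNA in all and the others 50 nM, and no group received the higher total without siBRM, so an effect of siBRM and one of siRNA amount cannot be told apart. Only a single cell line was used, and a dish gives 1 signal per probe, so more responding cells and more mRNA per cell cannot be told apart.

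Array means lay between 532 and 635 intensity units. Detected probes, those with a detection p-value below 0.01, numbered 15223 to 16799 on an array, and replicate arrays correlated at r of 0.994 to 0.995. SUZ12 and BRM themselves were not read, because no file used here pairs their names with probe IDs. Signals are given after scaling each array to the mean of all arrays, in arbitrary intensity units. Probes bind with different strength, so levels are compared between groups and not between probes.

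OAS1, OAS2 and OAS3 are enzymes that sense double-stranded RNA and make 2′-5′-linked oligoadenylates, which activate RNase L to cut viral and cellular RNA. OASL resembles them but carries ubiquitin-like domains and does not make these oligoadenylates. MX1 is a dynamin-like GTPase that blocks the entry or replication of several viruses, and ISG15 is a ubiquitin-like protein that is joined to other proteins. Type I interferons act on such genes mainly through the interferon-stimulated response element, whereas IFNγ acts mainly through gamma-activated sites.

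In the RefSeq gene table (GRCh38.p14), OAS1, OAS3 and OAS2 are neighbours in this order on chromosome 12, with OASL elsewhere on chromosome 12, MX1 on chromosome 21 and ISG15 on chromosome 1. Promoters were matched for 4 of the 6 genes, with 3 start sites for MX1. OAS2 and OASL had no entry. The stretches before the start sites of ISG15, OAS3 and OAS1 are shown because ISG15 and OAS3 rose with IFNγ in siCtrl cells and OAS1 did not detectably. They were thus picked by response, and a link between sequence and response was not tested. The first bases of the first MX1 start are shown because 1 of the MX1 matches to the response element lies there. Capitals mark GAAA repeated with any 2 bases between the copies, the core of the interferon-stimulated response element, and GAAANGAAA, the same repeat with 1 base between, which was added after the sequences were seen.
ISG15, chr1:1013347-1013496, + strand, bases -150 to -1: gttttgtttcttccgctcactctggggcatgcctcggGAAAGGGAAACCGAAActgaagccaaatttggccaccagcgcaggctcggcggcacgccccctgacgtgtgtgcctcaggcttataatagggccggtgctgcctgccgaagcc
OAS3, chr12:112938324-112938473, + strand, bases -150 to -1: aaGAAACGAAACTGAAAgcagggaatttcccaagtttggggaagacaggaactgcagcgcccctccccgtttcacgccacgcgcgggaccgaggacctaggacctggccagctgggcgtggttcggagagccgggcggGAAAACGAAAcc
OAS1, chr12:112906812-112906961, + strand, bases -150 to -1: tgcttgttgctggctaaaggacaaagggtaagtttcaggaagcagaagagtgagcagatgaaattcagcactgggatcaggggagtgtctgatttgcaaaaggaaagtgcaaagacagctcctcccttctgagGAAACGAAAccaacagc
MX1, first start, chr21:41420558-41420587, + strand, bases 1 to 30: cgagcaGAAATGAAACCGAAActgaattgt

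Windows of 300 bases, from 250 before to 50 after the start, were searched on both strands. ISG15 held the repeat with 2 bases between at 2 overlapping places, from -113 and from -107. OAS3 held it from -143 and from -12, and the first of these overlaps its GAAANGAAA. OAS1 had no such match and 1 GAAANGAAA from -17. MX1 held the repeat with 2 bases between from 12 at start 1 and, on the other strand, from -196 at start 3. It held GAAANGAAA from 7 at start 1. On the other strand it held this repeat from -19 at start 1, and from -113 and from -68 at start 2. Of all 35116 promoters in the table, 3.57% held the repeat with 2 bases between and 3.12% held GAAANGAAA. The gamma-activated site was searched as TTCNNNGAA, which reads the same on both strands and occurred in 7.66% of promoters. Among these genes it was found once in OAS1, from -168, and once at 1 of the MX1 starts, from -189. These are matches of letters in a short window, and no binding was measured here.

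IFNγ alone induced part of the group. In siCtrl cells ISG15, OAS3 and MX1 rose with IFNγ, ISG15 3.11-fold and OAS3 2.09-fold, while none of the OAS1, OAS2 and OASL probes passed the test. After siSUZ12 the same exposure raised 8 of the 9 probes, ISG15 4.28-fold, OAS1 3.59-fold and 3.71-fold, OAS3 3.01-fold and OASL 2.80-fold and 1.37-fold at its probes. ISG15 was detected on all 24 arrays, OAS3 on 18 and OASL ILMN_1674811 on 6.

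**Figure D1:**
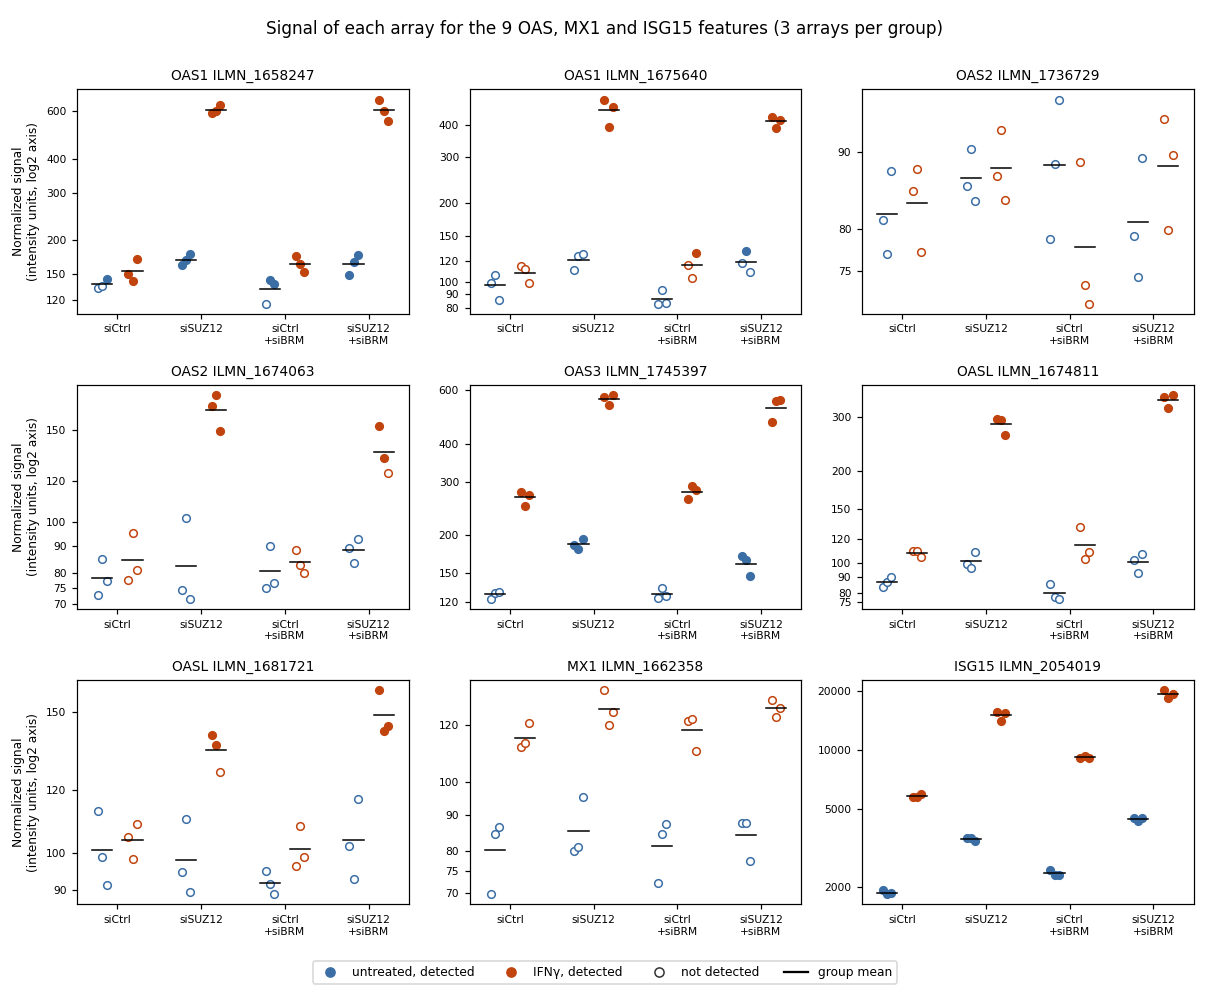
Normalized signal (intensity units, log2 axis, own range in each panel) of the 9 probes on all 24 arrays, by siRNA background, with untreated arrays in blue and IFNγ arrays in red, filled where the probe was detected and open where it was not; black bars are means of 3 arrays. OAS1 read 388 or more only on arrays with both siSUZ12 and IFNγ, whereas ISG15 stepped up with each of siSUZ12, siBRM and IFNγ.

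ISG15 gave signals of 1921, 1836 and 1860 on the 3 untreated siCtrl arrays and 5755, 5765 and 5975 with IFNγ. In siSUZ12 cells it gave 3547, 3540 and 3418 untreated and 15585, 14060 and 15352 with IFNγ. The 4 groups did not overlap. The log2 induction was 1.64 ± 0.07 (SE, 3 arrays against 3, adjusted p = 9.85e-19) in siCtrl cells and 2.10 ± 0.07 in siSUZ12 cells (adjusted p = 3.08e-22).

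OAS1 behaved otherwise. ILMN_1658247 read 133, 135 and 144 in untreated siCtrl cells and 150.3, 141 and 171 with IFNγ, so the groups overlapped and the log2 difference was 0.16 (95% interval -0.02 to 0.35, adjusted p = 0.797). In siSUZ12 cells it read 163, 170 and 178 untreated and 593, 602 and 635 with IFNγ. This is a 3.59-fold induction (log2 1.84 ± 0.09, adjusted p = 2.78e-17).

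The other OAS1 probe, ILMN_1675640, also passed the test for IFNγ in siSUZ12 cells. It was detected on none of the 6 siCtrl arrays without siBRM, where it read 85.8 to 107 untreated and 99.2 to 115 with IFNγ (log2 difference 0.16, adjusted p = 0.835). In siSUZ12 cells it went from 111, 126 and 128 to 498, 392 and 469 with IFNγ. The induction was 3.71-fold (log2 1.89 ± 0.10, adjusted p = 2.11e-16).

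OAS3 responded in both backgrounds. ILMN_1745397 rose from 123, 129 and 130.0 to 278, 250.1 and 272 in siCtrl cells (log2 1.06 ± 0.08, adjusted p = 9.27e-12). In siSUZ12 cells it rose from 185, 180.1 and 194 to 568, 535 and 579 (log2 1.59 ± 0.08, adjusted p = 7.2e-17). Untreated siSUZ12 arrays were above untreated siCtrl arrays and below siCtrl arrays with IFNγ, without overlap.

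The OAS2 probes disagreed with each other. ILMN_1736729 was detected on 0 of the 24 arrays, ranged from 71.4 to 97.5 and changed in no contrast. ILMN_1674063 was undetected on all 9 siCtrl and siSUZ12 arrays without siBRM other than those of siSUZ12 cells with IFNγ, where it read 167, 175 and 150. In those cells it rose from 74.3, 102 and 71.5, a 2.01-fold induction (log2 1.01 ± 0.11, adjusted p = 2.79e-08), and in siCtrl cells the log2 difference was 0.11 (95% interval -0.11 to 0.33, adjusted p = 0.947).

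OASL, the member without synthetase activity, resembled OAS1. ILMN_1674811 was undetected at 83.6, 86.6 and 90.4 in untreated siCtrl cells and at 109, 109 and 105 with IFNγ. The groups did not overlap, but the log2 difference of 0.31 ± 0.09 missed the threshold (adjusted p = 0.104). It passed when only probes detected in 3 arrays were tested (adjusted p = 0.024). This probe met that rule only through arrays with both siSUZ12 and IFNγ, so the value is no separate support for a response in siCtrl cells. In siSUZ12 cells this probe went from 99.1, 96.3 and 109 to 295, 295 and 262, a 2.80-fold induction (log2 1.48 ± 0.09, adjusted p = 3.2e-15).

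ILMN_1681721, the other OASL probe, moved in the same direction by less. In siSUZ12 cells it read 94.7, 111 and 89.5 untreated and 140.5, 136 and 126 with IFNγ (log2 0.46 ± 0.09, adjusted p = 0.00247). It was detected on 5 of the 24 arrays, each with siSUZ12 and IFNγ. Without replicate number 1, or number 3, of every group its induction lost significance (adjusted p = 0.105 and 0.0514).

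MX1 was dim throughout. ILMN_1662358 had a detection p-value below 0.01 on 0 of the 24 arrays, yet its IFNγ and untreated arrays did not overlap in any background. It rose from 69.6, 84.5 and 86.6 to 112, 113 and 121 in siCtrl cells (log2 0.53 ± 0.09, adjusted p = 4.03e-04) and from 80.1, 81.2 and 95.1 to 134, 120.2 and 125 in siSUZ12 cells (log2 0.57 ± 0.09, adjusted p = 7.1e-05).

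By count, IFNγ raised 3 of the 9 probes past the test (adjusted p-value below 0.05) in siCtrl cells, against 0.593% of all probes, and 2 of them by at least 2-fold, against 0.123%. In siSUZ12 cells 8 were higher, against 1.2% of all probes, 6 of them at least 2-fold, against 0.275%. With siBRM, 5 were higher in siCtrl cells, against 0.987%, 2 of them at least 2-fold, against 0.159%. With both siSUZ12 and siBRM 8 were higher, against 1.44%, 5 of them at least 2-fold, against 0.296%. The median log2 change of the 9 probes was 0.16, 1.48, 0.43 and 1.71 in these 4 backgrounds, and that of all probes lay between -0.05 and 0.01.

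The probes raised in siCtrl + siBRM cells were ISG15 (log2 1.97 ± 0.07), OAS3 (1.12 ± 0.08), MX1 (0.54 ± 0.09), OASL ILMN_1674811 (0.51 ± 0.09) and OAS1 ILMN_1675640 (0.43 ± 0.10, adjusted p = 0.0163). The OAS1 call was lost with neqc, a background correction followed by quantile normalization (adjusted p = 0.114), and without any one of 4 of the 6 arrays (adjusted p = 0.059 to 0.16). The other OAS1 probe, ILMN_1658247, missed the threshold at 0.31 (adjusted p = 0.103) but passed with neqc at 0.65 (adjusted p = 0.0428), with only detected probes tested (adjusted p = 0.028) and with trend and robust settings (adjusted p = 0.0455). In siSUZ12 + siBRM cells OAS1 rose by log2 1.89 ± 0.09 (ILMN_1658247) and 1.79 ± 0.10 (ILMN_1675640), OASL ILMN_1674811 by 1.76 ± 0.09, OAS3 by 1.71 ± 0.08, ISG15 by 2.13 ± 0.07 and OAS2 ILMN_1674063 by 0.62 ± 0.11. Inductions past the test at dim probes were larger with neqc. It gave log2 2.64 for OAS1 ILMN_1658247 and 2.76 for OASL ILMN_1674811 in siSUZ12 cells, but 2.09 for ISG15.

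**Figure D2:**
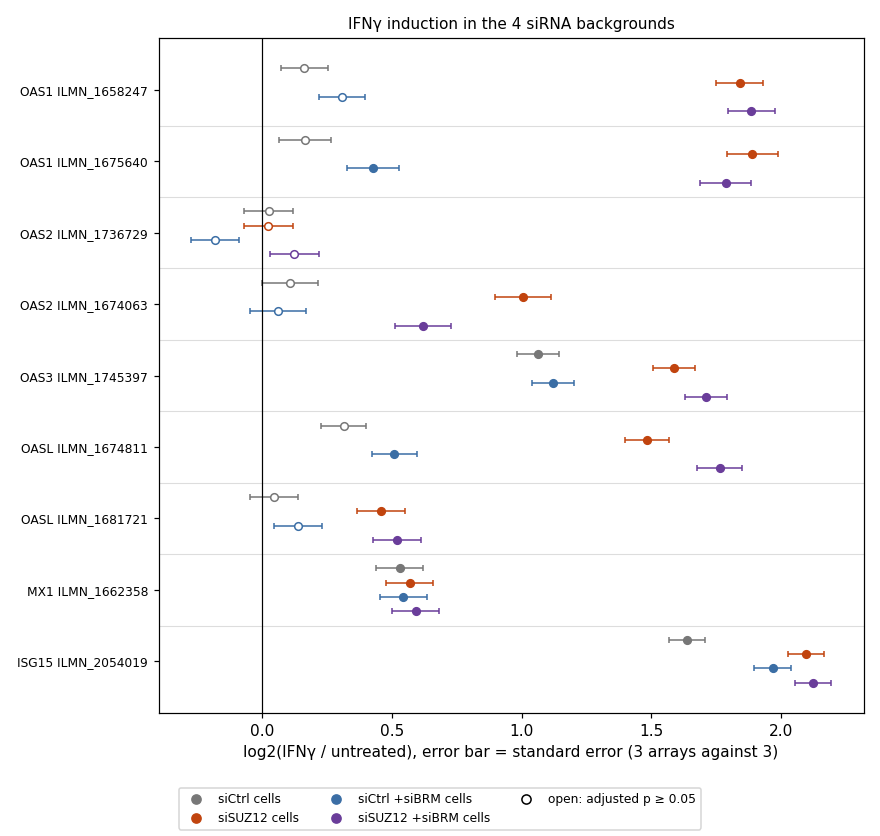
Log2 induction by IFNγ (horizontal axis, IFNγ over untreated, error bars are standard errors, 3 arrays against 3) of the 9 probes in the 4 siRNA backgrounds, with open symbols where the adjusted p-value was 0.05 or more. OAS1, OASL and OAS2 ILMN_1674063 lay between 0.04 and 0.51 in both backgrounds without siSUZ12, and between 0.46 and 1.89 in those with it, whereas the 4 values of MX1 lay between 0.53 and 0.59.

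Whether siSUZ12 changed the induction itself was tested as the difference between the induction in siSUZ12 and in siCtrl cells. It was larger for 6 of the 9 probes, against 0.182% of all probes, and smaller for none. These were both OAS1 probes, OAS2 ILMN_1674063, OAS3, OASL ILMN_1674811 and ISG15. The OAS1 probes differed by log2 1.68 ± 0.13 (ILMN_1658247, adjusted p = 4.39e-11) and 1.73 ± 0.14 (ILMN_1675640, adjusted p = 2.77e-10). OASL ILMN_1674811 differed by 1.17 ± 0.12 (adjusted p = 1.16e-07) and OAS2 ILMN_1674063 by 0.90 ± 0.15 (adjusted p = 0.00145). With neqc these 4 differences were 2.27, 2.89, 2.34 and 1.68, so their order changed. The OAS2 call was lost without replicate number 1 or 3 of every group (adjusted p = 0.15 and 0.119).

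The OAS3 and ISG15 calls were also lost under some alternatives. For OAS3 the difference was log2 0.53 ± 0.11 (adjusted p = 0.0338). With neqc it was 0.28 (adjusted p = 0.896), and 9 of the 12 single arrays of these groups each ended the call when left out (adjusted p = 0.0506 to 0.161). For ISG15 it was 0.46 ± 0.10 (adjusted p = 0.0337). Every single array of the 12 except replicate 2 of siSUZ12 cells with IFNγ ended the call when left out (adjusted p = 0.0582 to 0.129). The ISG15 call was also lost when only the groups compared were fitted (adjusted p = 0.118).

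MX1 did not pass this test. Its induction differed between siSUZ12 and siCtrl cells by log2 0.04, with a 95% interval from -0.22 to 0.30 (adjusted p = 0.995). OASL ILMN_1681721 gave 0.41 (adjusted p = 0.511), or 0.91 with neqc (adjusted p = 0.0337), and OAS2 ILMN_1736729, which was never detected, gave 0.00 with an interval from -0.27 to 0.27.

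siSUZ12 also raised members without IFNγ. In untreated cells ISG15 was 1.87-fold higher with siSUZ12 than with siCtrl (log2 0.90 ± 0.07, adjusted p = 4.09e-12), and OAS3 was 1.46-fold higher (log2 0.55 ± 0.08, adjusted p = 3.12e-06). The OAS1 probes were higher by log2 0.31 ± 0.09 (ILMN_1658247, adjusted p = 0.0171) and 0.33 ± 0.10 (ILMN_1675640, adjusted p = 0.0216). Each OAS1 call was lost without any one of 3 of the 6 arrays (adjusted p = 0.0575 to 0.085 and 0.0893 to 0.195). In all 4 probes passed in untreated cells, against 8.16% of all probes that were higher, and 0 reached 2-fold, against 0.451%. With neqc, OAS3 reached it (log2 1.05), ISG15 gave log2 0.97 and OAS1 ILMN_1675640 did not pass (adjusted p = 0.0856).

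With IFNγ present, siSUZ12 raised 7 probes, against 7.28% of all probes, 5 of them at least 2-fold, against 0.481%. OAS1 was 3.96-fold (ILMN_1658247, log2 1.99 ± 0.09) and 4.15-fold higher (ILMN_1675640, log2 2.05 ± 0.10), OASL ILMN_1674811 2.63-fold (log2 1.39 ± 0.09), ISG15 2.57-fold (log2 1.36 ± 0.07) and OAS3 2.10-fold (log2 1.07 ± 0.08). OAS2 ILMN_1674063 rose 1.94-fold and OASL ILMN_1681721 1.29-fold, a call lost without replicate number 1 or 2 (adjusted p = 0.0602 and 0.0823). These values share their siSUZ12 IFNγ arrays with the induction in siSUZ12 cells, so they are not separate evidence of it.

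MX1 did not pass the test for siSUZ12. Its log2 difference was 0.09 in untreated cells (95% interval -0.09 to 0.28, adjusted p = 0.676) and 0.13 with IFNγ (95% interval -0.05 to 0.32, adjusted p = 0.457). The interval leaves room for a change of up to 0.32 on the log2 scale of this dim probe, and with neqc the difference with IFNγ was 0.31 and passed the test (adjusted p = 0.0305).

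**Figure D3:**
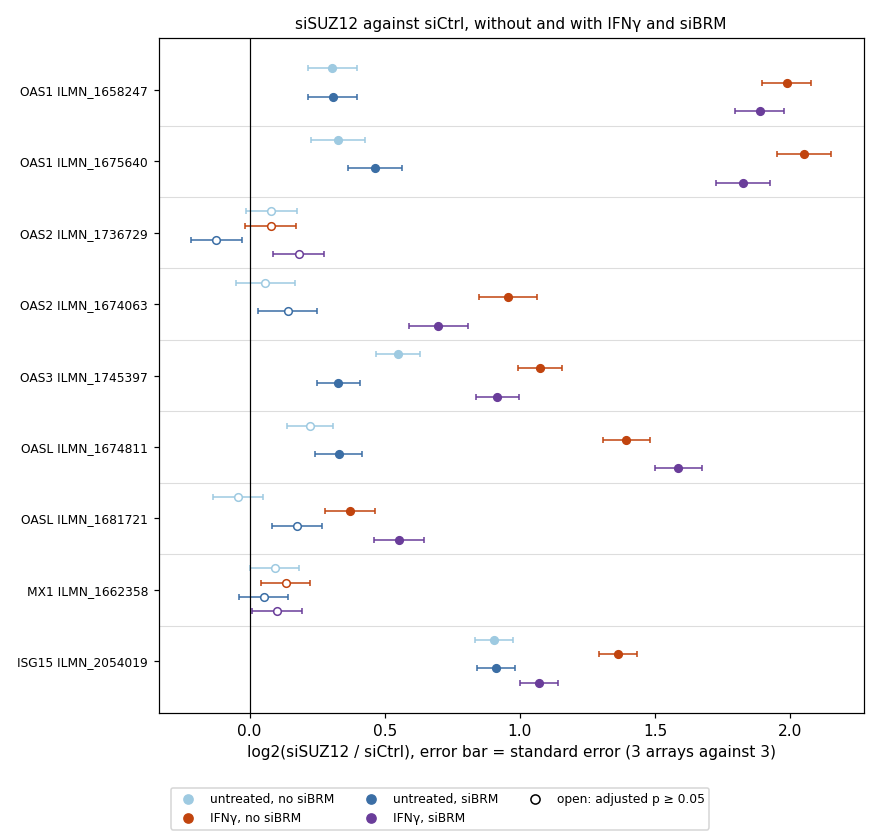
Log2 difference between siSUZ12 and siCtrl cells (horizontal axis, error bars are standard errors, 3 arrays against 3) of the 9 probes, untreated and with IFNγ, without and with siBRM, with open symbols where the adjusted p-value was 0.05 or more. The OAS1 differences were 0.31 to 0.46 in untreated cells and 1.83 to 2.05 with IFNγ, while those of MX1 stayed between 0.05 and 0.13.

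The siSUZ12 pattern was also read on the 12 arrays with siBRM, which are separate from those above. With siBRM, OAS1 ILMN_1658247 read 176, 163 and 152 in siCtrl cells with IFNγ and 663, 604 and 552 in siSUZ12 cells with IFNγ, and ILMN_1675640 read 116, 103 and 129.7 against 429, 388 and 417. OASL ILMN_1674811 read 131, 103 and 109 against 349, 322 and 354. None of these groups overlapped.

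In these siBRM cells siSUZ12 raised 5 probes without IFNγ, against 5.04% of all probes, and 0 by at least 2-fold, against 0.241%. With IFNγ it raised 7, against 4.72%, 4 of them at least 2-fold, against 0.292%. The induction was larger with siSUZ12 for 4 probes, against 0.0974% of all probes. They were OAS1 ILMN_1658247 (log2 1.58 ± 0.13, adjusted p = 3.04e-10), OAS1 ILMN_1675640 (1.36 ± 0.14, adjusted p = 1.24e-07), OASL ILMN_1674811 (1.26 ± 0.12, adjusted p = 2.9e-08) and OAS3 (0.59 ± 0.11, adjusted p = 0.0138). With neqc the first 3 were 2.05, 2.38 and 2.44.

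OAS3 lost this last call with neqc (adjusted p = 0.383) and with only the groups compared fitted (adjusted p = 0.102). The call was also lost without any one of 5 of the 12 arrays (adjusted p = 0.0675 to 0.0792). OAS2 ILMN_1674063 missed the threshold at 0.56 ± 0.15 (adjusted p = 0.334), although it was 1.62-fold higher with siSUZ12 in IFNγ-treated siBRM cells (adjusted p = 1.74e-05), and with neqc its difference in induction was 1.10 and passed (adjusted p = 0.00256). ISG15 gave 0.16 ± 0.10 with an interval from -0.05 to 0.36 (adjusted p = 1).

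Among the untreated siBRM cells ISG15 was 1.88-fold higher with siSUZ12 (log2 0.91 ± 0.07). OAS1 ILMN_1675640 was higher by log2 0.46, OAS1 ILMN_1658247 by 0.31, OAS3 by 0.33 and OASL ILMN_1674811 by 0.33. The calls of OAS1 ILMN_1658247 and OASL ILMN_1674811 were each lost without any one of 3 of the 6 arrays and with neqc (adjusted p = 0.051 and 0.197). That of OAS3 was lost without replicate 1 of siSUZ12 + siBRM cells (adjusted p = 0.0563).

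Whether the siSUZ12 effect differed with and without siBRM was tested directly. In untreated cells it differed for 0 of the 9 probes (limma), against 1.25% of all probes, and 0 had an unadjusted p-value below 0.05. With IFNγ it differed for 0, against 1.3%, and for the change of induction for 0, against 0.00212%. In each of these last comparisons ISG15 was the 1 probe with an unadjusted p-value below 0.05. Its siSUZ12 effect with IFNγ was log2 1.36 without and 1.07 with siBRM, a difference of -0.29 ± 0.10 (adjusted p = 0.191). That difference passed when only detected probes were tested (adjusted p = 0.0304) and with trend and robust settings (adjusted p = 0.0398).

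ISG15 was the 1 member past the test for siBRM, and OAS2 ILMN_1674063 and OAS3 each passed in siSUZ12 cells under some alternative. OASL ILMN_1674811 passed only under a detection filter that it met through the arrays compared. ISG15 read 2446, 2308 and 2296 in untreated siCtrl cells with siBRM, against 1921, 1836 and 1860 without it. With IFNγ it read 9092, 9346 and 9147, against 5755, 5765 and 5975. The arrays with siBRM lay above those without it in both states.

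The same held in siSUZ12 cells. ISG15 read 4478, 4320.0 and 4470.3 with siBRM, against 3547, 3540 and 3418 in untreated cells without it, and 20136, 18506 and 19283 against 15585, 14060 and 15352 with IFNγ. The highest ISG15 signals of the series were thus on the arrays with siSUZ12, siBRM and IFNγ.

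The log2 effect of siBRM on ISG15 was 0.33 ± 0.07 (adjusted p = 0.00353) and 0.66 ± 0.07 (adjusted p = 4.92e-08) in untreated and IFNγ-treated siCtrl cells, and 0.34 ± 0.07 (adjusted p = 0.00312) and 0.36 ± 0.07 (adjusted p = 0.00117) in untreated and IFNγ-treated siSUZ12 cells. It was thus the 1 probe of 9 past the test in each of the 4 comparisons, against 3.39%, 3.13%, 2.94% and 3.4% of all probes that changed either way. The call in siCtrl cells with IFNγ held without any replicate number. In untreated siCtrl and siSUZ12 cells it was lost without any one of the 3 numbers (adjusted p = 0.0769 to 0.145), and in siSUZ12 cells with IFNγ without number 1 or 2 (adjusted p = 0.0512 and 0.0869). Leaving out any single array did not end these calls.

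The other 8 probes had log2 effects of siBRM between -0.27 and 0.27, and none passed. The values furthest from 0 were OASL ILMN_1674811 at 0.27 (adjusted p = 0.0893) and OAS2 ILMN_1674063 at -0.27 (adjusted p = 0.24), both in siSUZ12 cells with IFNγ. With neqc the OAS2 value was -0.59 and passed (adjusted p = 0.00426), as did OAS3 in untreated siSUZ12 cells at -0.42 (adjusted p = 0.0378). When only detected probes were tested, OAS3 in untreated siSUZ12 cells passed at -0.22 (adjusted p = 0.0499). The OASL value also passed (adjusted p = 0.0231), but this probe met that detection rule only through siSUZ12 arrays with IFNγ. Those are the groups compared here, so its pass is no separate support for an effect of siBRM.

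**Figure D4:**
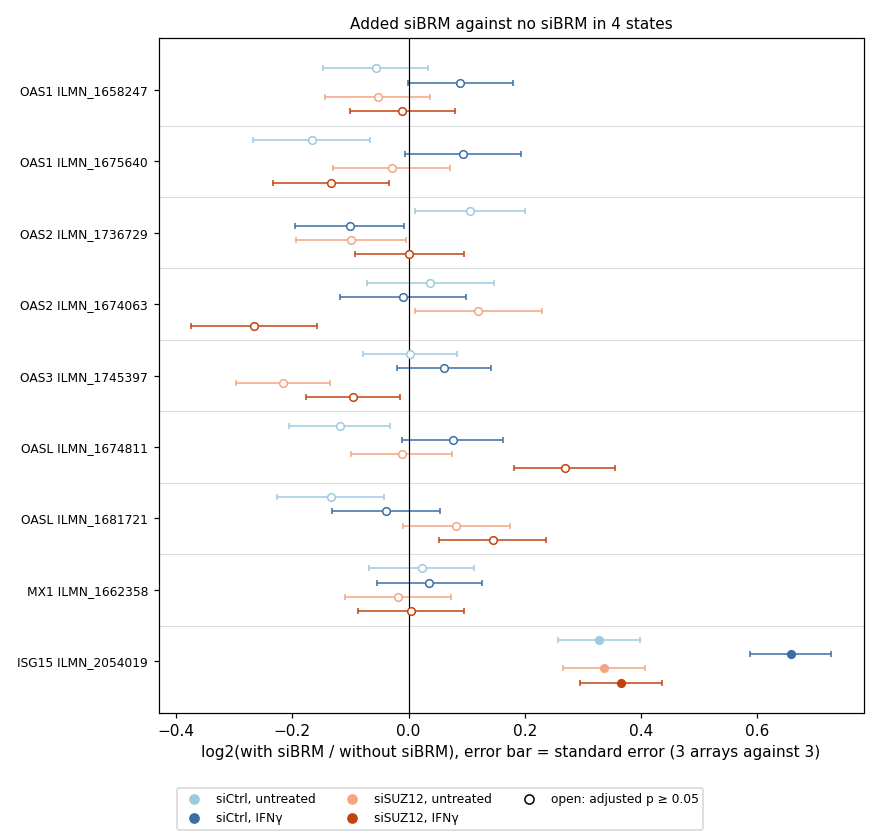
Log2 difference between cells with and without siBRM (horizontal axis, error bars are standard errors, 3 arrays against 3) of the 9 probes in the 4 combinations of siCtrl or siSUZ12 with or without IFNγ, with open symbols where the adjusted p-value was 0.05 or more. ISG15 was raised by 0.33 to 0.66 in all 4, and every other value lay between -0.27 and 0.27 without passing the test on all 47231 probes.

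siBRM did not detectably change the induction by IFNγ of any member. In siCtrl cells 0 of the 9 probes passed (limma), against 0% of all probes, and 1 had an unadjusted p-value below 0.05. This was ISG15, whose induction was log2 1.97 with and 1.64 without siBRM, a difference of 0.33 ± 0.10 (unadjusted p = 0.00228, adjusted p = 1). In siSUZ12 cells 0 passed, against 0.0275%, and 2 had an unadjusted p-value below 0.05, OAS2 ILMN_1674063 at -0.39 and OASL ILMN_1674811 at 0.28.

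The 8 group means were then placed in order at each probe, and neighbours in the order were compared in the same fit. Of the 63 neighbouring pairs, 16 differed. The order was set by the same means that were compared, and such pairs were not counted over all probes, so the count only describes these members. ISG15 accounted for 7 of them, its order being siCtrl, siCtrl + siBRM, siSUZ12 and siSUZ12 + siBRM without IFNγ, then the same 4 in the same order with IFNγ. The group means ran from 1872 ± 43.4 (SD, n = 3) to 19308 ± 816.

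For most of the other probes the order had 1 step between neighbours. At both OAS1 probes and at OASL ILMN_1674811 the 6 lower groups did not differ from their neighbours, and the 2 groups with siSUZ12 and IFNγ stood above the rest and did not differ from each other. OAS2 ILMN_1674063 and OASL ILMN_1681721 had the same step. At MX1 the step lay between the 4 untreated and the 4 IFNγ groups (adjusted p = 4.41e-04), and at OAS3 there were 3 steps. OAS2 ILMN_1736729 had none. Only neighbours were compared here. At the OAS1 probes untreated siSUZ12 cells lay above untreated siCtrl cells (adjusted p = 0.0171 and 0.0216), although these groups were not neighbours. Those calls were each lost without some arrays, as given above.

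Over the 24 arrays, the mean of the members' standardized log2 signals correlated with ILMN_1739428 at 0.977 and with ILMN_2410826 at 0.971, the closest of all other probes. The files used here do not name their genes. ILMN_1739428 went from 179 ± 11.1 in siCtrl to 879 ± 51.0 in siSUZ12 cells with IFNγ (SD, n = 3), and ILMN_2410826 from 94.0 ± 3.45 to 549 ± 28.4. Among the members, OASL ILMN_1674811 was closest to the mean at 0.981 and OAS2 ILMN_1736729 furthest at 0.355. Each member is itself part of that mean, so its value is not comparable with those of the other probes. These correlations are across arrays of 8 groups that share treatments, and describe the arrays only.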

How the data were processed

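The members were chosen by probe ID, and members, motifs and tests were chosen with earlier results of these data known. Samples were grouped by their labels. The authors hybridized cRNA to Illumina HT-12 arrays and deposited intensity per probe and array without normalization. The deposited detection p-value of each intensity was used to call probes detected (below 0.01). The submitters' processing notes name BeadStudio, without a version.

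Arrays were multiplied to a common mean signal, the average over the 24 arrays, taken for the average normalization of the methods. A floor of 16 acted on 0 values. No background was removed, which can make folds of dim probes too small. limma 3.58.1 in R 4.3.3 was fitted to the log2 signals of the 24 arrays together, with 1 mean for each group and 16 residual degrees of freedom. Adjusted p-values are Benjamini-Hochberg over 47231 probes per contrast, with intervals at 95%. Changes of 2-fold are counted apart, except in differences of inductions. The fit was tested on simulated data. Alternatives were another normalization (quantile, or neqc with offset 16), a floor of 64, only probes detected in 3 arrays, only the groups compared, trend and robust settings, a replicate block, other thresholds and left-out arrays. For named genes the rule was the 9 members and the 2 closest other probes. The other pathway genes of the rule were not read, since the table gives no symbols. Columns of per-sample values left unused numbered 0. The precision is limited by 3 arrays per group, and 3 against 3 cannot give a permutation p-value below 0.10.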

Additional observations from a re-analysis of the deposited data

Results flagged for a closer look

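The effect of IFNγ differed between siSUZ12 and siCtrl cells in 10 tests of the difference itself, all toward a larger induction with siSUZ12. They were 6 of the 9 probes without siBRM, against 0.182% of all probes, and 4 of the 9 with it, against 0.0974%. The OAS1 probes, OAS3 and OASL ILMN_1674811 are counted in both. The OAS2, OAS3 and ISG15 calls were each lost under some alternatives, as given above. On arrays without siBRM the log2 difference was 1.68 and 1.73 for the OAS1 probes ILMN_1658247 and ILMN_1675640, 0.90 for OAS2 ILMN_1674063, 0.53 for OAS3, 1.17 for OASL ILMN_1674811 and 0.46 for ISG15. On arrays with siBRM it was 1.58 and 1.36 for the same OAS1 probes, 0.59 for OAS3 and 1.26 for OASL ILMN_1674811. Read the other way, the same values say how much larger the siSUZ12 effect was with IFNγ than without. OAS1 ILMN_1658247 was detected on 21 of the 24 arrays, whereas OASL ILMN_1674811 and OAS2 ILMN_1674063 were undetected on every array outside siSUZ12 cells with IFNγ. Groups of 3 arrays were too small for a test of single outlying arrays.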

How the results depend on the processing

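No value past its threshold changed sign under any alternative. Over 5776 member values recomputed, 161 changed sign, and 0 of these were past the threshold in either fit. Leaving out single arrays or replicate numbers gave 3 to 6 probes for the change of induction by siSUZ12 without siBRM (6 on all arrays), with 3 when number 1 or number 3 was left out of every group. With siBRM it gave 3 to 4. Among the 61 member values past the threshold, 9 lost it without some array of their groups and 15 without some replicate number. With an adjusted p-value alone in place of 2-fold, the induced probes numbered 5 in siCtrl + siBRM and 8 in siSUZ12 + siBRM cells. In untreated cells siSUZ12 then raised 4 without and 5 with siBRM, and 7 with siBRM and IFNγ, while siBRM raised 1 in each comparison. At 1.5-fold, siSUZ12 raised 1 in untreated cells without and 1 with siBRM, and siBRM raised 1 in siCtrl cells with IFNγ. With neqc, siSUZ12 raised 1 by 2-fold in untreated cells without siBRM and 7 with siBRM and IFNγ. With a 2-fold limit on the change of induction without siBRM, 3 were counted. The siSUZ12 effect with IFNγ differed with siBRM for 1 probe, ISG15, when only detected probes were tested or trend and robust settings were used. Apart from those by adjusted p-value alone, these counts have no share of all probes beside them, as none was taken under these settings. They show only how the member counts moved. A stricter threshold by its own construction cannot raise a count. Otherwise, also for left-out arrays, the cause was not tested. The neighbouring pairs of groups that differed numbered 16, and 11 to 18 under the alternatives, which for this count were chosen after seeing the data.

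Replicate numbers were checked for pairing. Same-numbered arrays of different groups deviated together with r from -0.10 to 0.36, and 43 of 84 pairs exceeded 0.1. Pairing would have been accepted only if every pair did, so the numbers were not used as pairs. As a hint from the data, in 17 of 24 arrays the best match in another group had the same number, which 7 of the 21 arrays of other groups carry. With the replicate block the counts of members were those of the fit without it, at 2, 6, 2 and 5 induced probes in the 4 backgrounds and at 6 and 4 changes of induction, and 98 against 94 of all probes changed in induction with siSUZ12 without siBRM.

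Folds of dim probes depended on the background correction. With neqc the induction in siSUZ12 cells was log2 2.64 and 3.16 for the OAS1 probes ILMN_1658247 and ILMN_1675640 (1.84 and 1.89 without it), 2.76 for OASL ILMN_1674811 (1.48), 1.78 for OAS2 ILMN_1674063 (1.01), 2.24 for OAS3 (1.59) and 0.96 for MX1 (0.57), against 2.09 for the bright ISG15 (2.10). For OAS3 in siCtrl cells neqc gave 1.96 (1.06).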
